A study of Mus musculus with 6 samples.

Results

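The genes described here encode the TAM receptor tyrosine kinases Mertk, Axl and Tyro3, their secreted ligands Gas6 and Pros1, and the integrin bridge Mfge8. They were chosen by name, and a gene's value on an array was the mean of the probe sets that the platform table assigns to that gene alone. All 6 had such probe sets, 12 to 23 each, among 20848 genes measured. The RNA came from EpH4 cells, an established mouse mammary epithelial line, held confluent for 7 days so that tight junctions formed and then kept in serum-free medium for 24 hours. One group of 3 samples received TGF-β3 at 1 ng/ml for 24 hours and the other group of 3 received vehicle for 24 hours. Each sample pooled the RNA of 3 wells of 1 experiment and was hybridised to 1 Affymetrix mouse gene array, and 3 experiments were made. The labels name no genotype or transgene, and all samples are of the same line, so the spread between samples covers repeat cultures only. In bulk RNA, fewer cells with a transcript and less transcript per cell cannot be told apart.

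Dying cells expose phosphatidylserine on their outer membrane, and neighbouring cells can recognise it through soluble bridging proteins. Gas6 and Pros1 (protein S) bind phosphatidylserine through vitamin K-dependent carboxylated residues and bind TAM receptors at their other end. Gas6 is a ligand of all TAM receptors, whereas Pros1 acts on Mertk and Tyro3. Mfge8, the milk fat globule protein, binds phosphatidylserine and carries an RGD motif that αv integrins recognise. Mammary epithelial cells take up dying neighbours and residual milk when lactation ends, and TGF-β3 is a secreted ligand, known for its rise in the gland at that time, whose receptors act on SMAD transcription factors. The question is whether the RNAs of receptors and bridges differ after TGF-β3 in an epithelium with established junctions, and which of them such cells hold.

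The start-site windows of 3 of these genes are shown because they belong to a receptor and a ligand with clear signal (Axl and Gas6) and to a receptor without it (Mertk), and because SMAD proteins bind short DNA elements. The windows are from RefSeq on GRCm38.p6, run from 250 bases before to 50 bases after an annotated start, and are written 5′ to 3′ on the gene's strand. In Axl and Tyro3 that start lies inside the RefSeq gene and is not its 5′ end (25788924 for Axl). Positions are counted from the start used. Capitals mark the SMAD box GTCTG or its reverse complement CAGAC, and the GC-rich SMAD element GGCGCC, which reads the same on both strands. These elements overlapped each other in none of the 6 windows.
Axl, chr7:25788684-25788983, minus strand: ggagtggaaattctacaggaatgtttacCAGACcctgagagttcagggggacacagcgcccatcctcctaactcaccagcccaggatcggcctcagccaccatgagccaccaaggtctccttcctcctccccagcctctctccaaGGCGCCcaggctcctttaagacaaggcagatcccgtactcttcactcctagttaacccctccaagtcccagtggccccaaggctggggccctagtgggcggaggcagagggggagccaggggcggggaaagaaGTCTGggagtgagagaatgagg
Gas6, chr8:13494486-13494785, minus strand: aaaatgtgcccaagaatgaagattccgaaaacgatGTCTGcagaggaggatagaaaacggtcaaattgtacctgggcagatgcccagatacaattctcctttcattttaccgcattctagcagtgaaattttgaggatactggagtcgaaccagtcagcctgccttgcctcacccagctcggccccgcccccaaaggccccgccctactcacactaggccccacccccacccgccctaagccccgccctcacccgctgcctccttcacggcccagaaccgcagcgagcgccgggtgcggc
Mertk, chr2:128698665-128698964, plus strand: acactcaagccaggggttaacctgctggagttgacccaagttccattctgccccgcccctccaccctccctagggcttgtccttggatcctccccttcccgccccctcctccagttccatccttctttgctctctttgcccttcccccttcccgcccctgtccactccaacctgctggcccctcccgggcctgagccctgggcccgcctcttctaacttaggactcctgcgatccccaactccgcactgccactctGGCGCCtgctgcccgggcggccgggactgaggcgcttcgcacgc
The box occurred at 2 places in the Axl window, with first bases at -222 and 29 from the start, and at 1 place, -215, in the Gas6 window. The other 4 windows held no such box, while 49.6% of all 32851 RefSeq windows of the same length held one. The GC-rich element was present in 3 of the 6 windows, those of Mertk (first base at 7), Axl (-105) and Mfge8 (1), against 11.9% of all windows. The full SMAD palindrome GTCTAGAC, found in 0.213% of all windows, and the AP-1 site TGACTCA or TGAGTCA, found in 5.2%, were in 0 of the 6. The GC box GGGCGG or CCGCCC was in 6 of 6, from 2 copies in Axl to 6 in Tyro3, some of them overlapping, against 35.7% of all windows. The windows were GC-rich, from 58.3% in Gas6 to 73.3% in Tyro3, against a median of 52.7%. Matches are letters in these windows and show no binding.

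Array medians lay between 6.56 and 6.64 log2 units. The vehicle 3 array stood apart, with an SD over genes of 1.58 against 1.68 to 1.74 on the other 5. Epithelial identity was clear in the markers. Of 12 epithelial marker genes, 11 were above the range of silent genes defined below on all 6 arrays, Krt19 being the exception. None of the 5 endothelial markers was (0 of 5). Of 10 macrophage markers, Csf1r, Cd68, Cd14 and Cx3cr1 were above it, and the leukocyte and macrophage genes Ptprc, Adgre1, Itgam, Aif1, Tyrobp and Fcer1g were not. Krt14 alone of 6 basal markers and 4 of 8 fibroblast markers (Pdgfra, Pdgfrb, Col1a1 and Col1a2) were also above it. Of all genes, 43.8% were above it. The mean of the macrophage list ran from 5.77 to 5.98 in vehicle and from 5.82 to 5.89 in TGF-β3. The epithelial list ran from 9.64 to 9.73 and from 9.67 to 9.75, and the fibroblast list from 6.51 to 6.78 and from 6.54 to 6.76.

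EpH4 monolayers gave clear signal for 1 TAM receptor, Axl, for 1 TAM ligand, Gas6, and for the integrin bridge Mfge8. Mertk and Pros1 gave signal within the range of genes that mammary epithelium is not known to use, and Tyro3 lay between. That range was taken from 1596 probe sets of 1172 odorant and vomeronasal receptor genes, called silent genes here. Their median log2 signal was 4.20 to 4.50 and their 95th percentile 5.72 to 6.40 on the 6 arrays. A gene was counted as above the range when its value passed the 95th percentile on all 6 arrays. This held for 43.8% of all genes, for 1.71% of the silent genes and for 4 of the 6 genes described here, Axl, Tyro3, Gas6 and Mfge8. Probe sets differ in how brightly they report the same RNA, so these signals do not rank the receptors or the bridges by abundance.

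**Figure D1:**
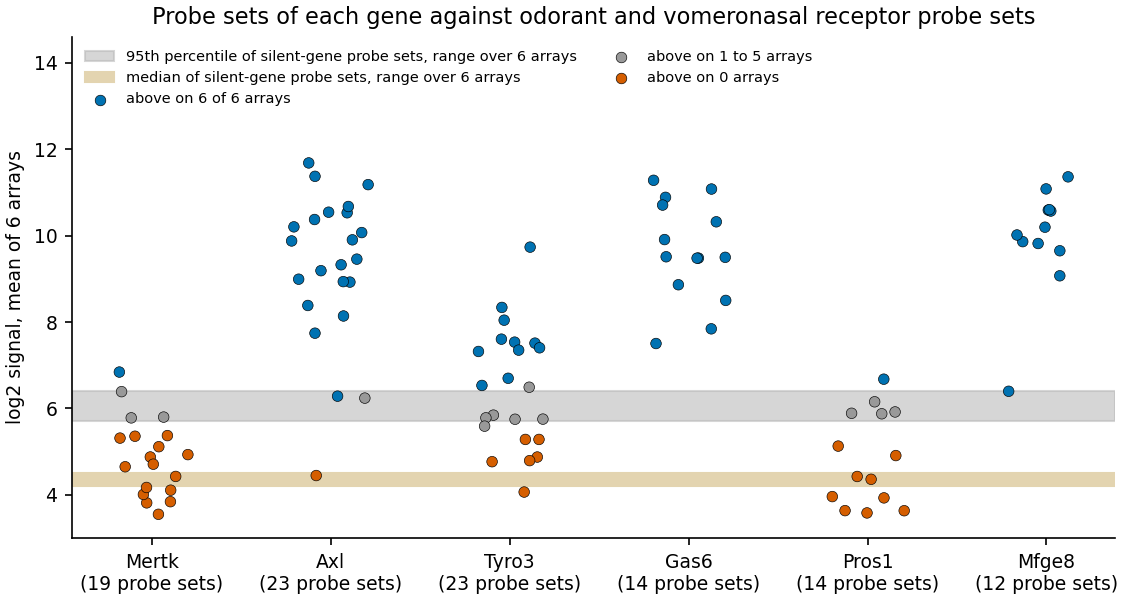
Each point is 1 probe set, with its log2 signal averaged over the 6 arrays on the vertical axis, grouped by gene. The grey band is the span over the arrays of the 95th percentile of silent-gene probe sets (5.72 to 6.40), the tan band that of their median (4.20 to 4.50), and colours give the number of arrays on which a probe set passed that array's 95th percentile. All probe sets of Gas6 (14) and Mfge8 (12) passed on every array, against 1 of 19 for Mertk and 1 of 14 for Pros1.

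The probe sets of a gene varied in signal. For Axl, 21 of 23 probe sets were above the 95th percentile of silent genes on all 6 arrays, and 1 was above it on 0 arrays. All 14 probe sets of Gas6 and all 12 of Mfge8 were above it on all 6. Tyro3 was mixed, with 11 of 23 above on all 6 arrays and 6 of 23 on none, and its probe sets averaged 4.07 to 9.73. Tyro3 lost its place above the range when the 99th percentile was used or when vomeronasal receptor genes alone set the range, and Axl, Gas6 and Mfge8 then remained. All 4 genes remained above it without the vehicle 3 array. For Mertk, 15 of 19 probe sets passed on 0 arrays and 1 passed on all 6. That probe set read 7.01, 6.71 and 6.88 in vehicle 1, 2 and 3, whereas TGF-β3 1, 2 and 3 read 6.62, 6.92 and 6.91, and the groups overlapped. Another Mertk probe set, at a mean of 6.39, passed on 5 arrays and just missed on vehicle 2 (5.99 against 6.01). For Pros1, 9 of 14 probe sets passed on 0 arrays and 1 passed on all 6, at a mean of 6.68. The share of all probe sets passing on all 6 arrays was not computed. Detection calls were not used here, so a low level of Mertk or Pros1 RNA was not distinguishable from none.

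The difference between TGF-β3 and vehicle monolayers passed the test in none of the 6 genes. In limma over all genes, 0 of 6 passed an adjusted p of 0.05, and 0 of 20848 genes did (0.0%). At an unadjusted p under 0.05 there were 0 of the 6, against 5.16% of all genes. The 6 differences ran from -0.12 to 0.08 log2 units with a median of -0.002, 3 higher and 3 lower, beside a median of 0.011 and 52.8% higher over all genes. Each 95% interval lay within 0.79-fold to 1.23-fold for the receptors and within 0.78-fold to 1.22-fold for the bridging proteins. This leaves room for signal differences of up to that size. For Mertk and Pros1, whose signals lay in the silent range, the intervals do not bound a change in the RNA itself.

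**Figure D2:**
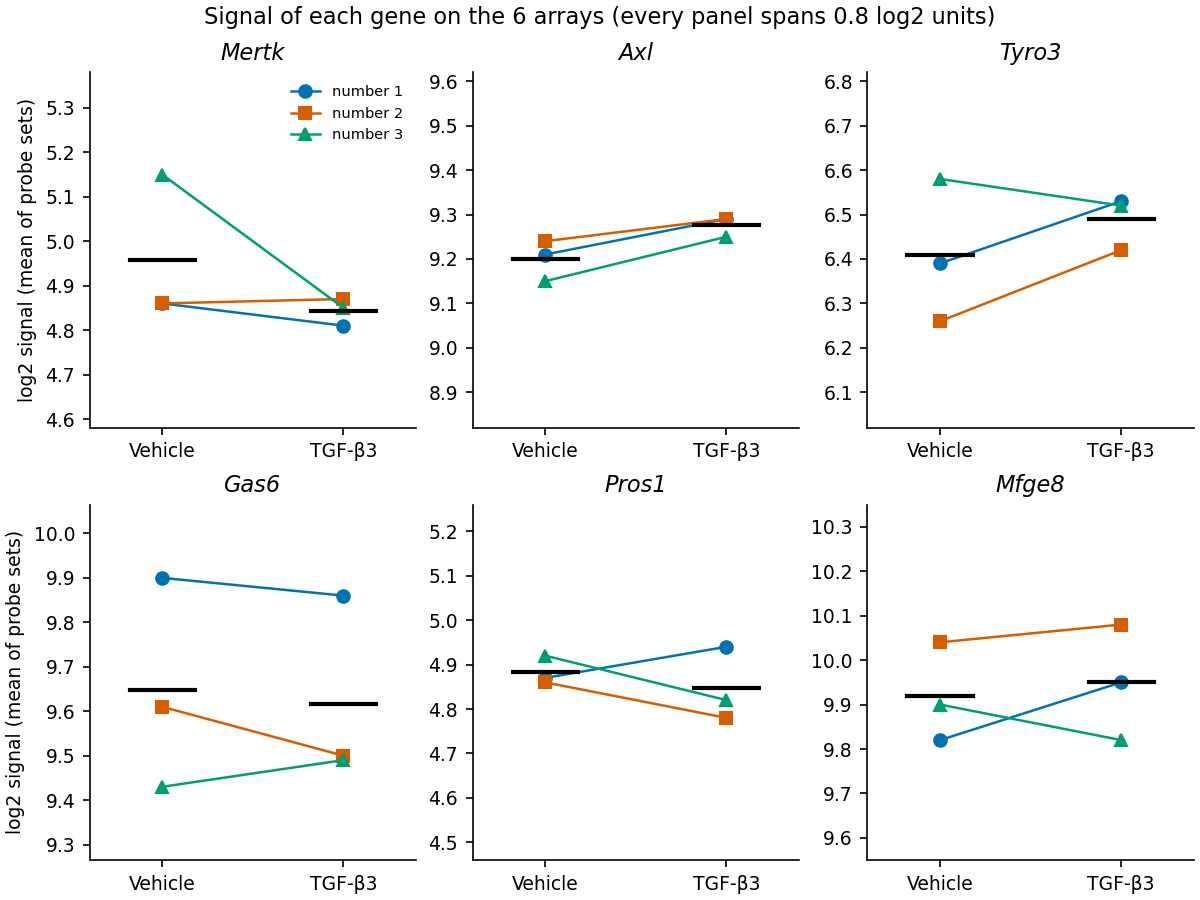
Log2 signal of each gene (vertical axis, mean of its probe sets) in vehicle and TGF-β3 samples, with lines joining samples of the same number and black bars for group means. Every panel spans 0.8 log2 units. The groups overlap in all genes but Axl, and Gas6 separates by sample number, with both samples numbered 1 highest at 9.90 and 9.86.

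Axl, the receptor with clear signal, read 9.21, 9.24 and 9.15 in vehicle 1, 2 and 3 and 9.29, 9.29 and 9.25 in TGF-β3 1, 2 and 3. The groups did not overlap, and the TGF-β3 sample was higher in 3 of 3 pairs, by 0.08, 0.04 and 0.10. The difference of the means, 0.07 (SE 0.08, 95% interval -0.10 to 0.24), did not pass in limma (adjusted p = 0.713). Groups failed to overlap in 12.9% of all genes, and all 3 pairs had 1 sign in 42.0% of them. The quintile of all genes with the highest signal, to which Axl, Gas6 and Mfge8 belong, had a median difference of 0.08. In pairs 1, 2 and 3 its median was 0.02, 0.04 and 0.19. Gas6 and Mfge8 themselves differed by -0.04 and 0.03. Axl differed by 0.04 after quantile normalization, which matches the arrays' distributions, and by 0.05 without the vehicle 3 array. The quintile's medians were then 0.04 and 0.03. The part of the quintile's shift in the Axl difference was not tested. Of the 23 Axl probe sets, 19 were higher and 4 lower in TGF-β3, while 85.3% of all genes above the silent range were higher. The dimmest Axl probe set, at a mean of 4.45 among silent genes, had the most negative difference (-0.82). None of the 23 passed over all probe sets (0 called, 2 at an unadjusted p under 0.05, lowest adjusted p = 0.993 in limma, with 0.0% of all probe sets called and 4.15% under 0.05 unadjusted).

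Mertk, a receptor that macrophages and retinal epithelium use to engulf cell debris, read 4.86, 4.86 and 5.15 in vehicle and 4.81, 4.87 and 4.85 in TGF-β3. Of the 6 arrays, 5 lay within 4.81 to 4.87 and the vehicle 3 array alone was higher. On that array the 95th percentile of silent-gene probe sets was also the highest, by 0.38 over the next array, and their median by 0.14. Mertk exceeded its next array by 0.28. Pros1, also in the silent range, differed there by -0.03 from its highest other array. Mertk differed by -0.12 (SE 0.10, adjusted p = 0.685 in limma), and by -0.06, 0.01 and -0.30 in pairs 1, 2 and 3. Without the vehicle 3 array the difference was -0.02. The second quintile of genes by signal, to which Mertk belongs, had a median difference of -0.08 and of -0.18 in pair 3. What part the array's signal range had in the Mertk value was not tested beyond these values.

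Tyro3, the TAM receptor best known from neurons, read 6.39, 6.26 and 6.58 in vehicle and 6.53, 6.42 and 6.52 in TGF-β3. All TGF-β3 values lay inside the vehicle range. The difference was 0.08 (SE 0.10, adjusted p = 0.748 in limma), with pairs 1 and 2 at 0.13 and 0.16 and pair 3 at -0.06. Its probe sets did not move as one: 15 of 23 were higher and 8 lower in TGF-β3, and the brightest differed by -0.25 (SE 0.15).

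Gas6, the ligand of all TAM receptors, read 9.90, 9.61 and 9.43 in vehicle and 9.86, 9.50 and 9.49 in TGF-β3. Same-numbered samples lay close together, with pair differences of -0.05, -0.11 and 0.06, whereas the means of numbers 1, 2 and 3 were 9.88, 9.56 and 9.46. The treatment difference was -0.04 (SE 0.14, 95% interval -0.35 to 0.28, adjusted p = 0.918 in limma). With the sample number as a block its SE was 0.08 and its interval -0.21 to 0.14. Both samples numbered 1 exceeded the other 4 in 11 of the 14 Gas6 probe sets. These probe sets read the same samples and are not repeats, and the share over all probe sets was not computed. The span between the numbers, 0.42 log2 units, was the widest of the 6 genes (0.07 to 0.21 in the others). An F test of the sample number in limma, added after these values were seen, gave Gas6 an unadjusted p of 0.00409 and an adjusted p of 0.132, so the number effect did not pass over all genes. By the same test 1.18% of all genes passed, and 15.9% had an unadjusted p under 0.05.

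Pros1, the other TAM ligand and a plasma anticoagulant made mainly in liver, read 4.87, 4.86 and 4.92 in vehicle and 4.94, 4.78 and 4.82 in TGF-β3. The groups overlapped, and the difference was -0.03 (SE 0.08, adjusted p = 0.869 in limma). Of its probe sets 8 were higher and 6 lower. At a signal among silent genes, a change in a scarce RNA was not detectable.

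Mfge8, abundant on milk fat globules, read 9.82, 10.04 and 9.90 in vehicle and 9.95, 10.08 and 9.82 in TGF-β3. The groups overlapped, and the difference was 0.03 (SE 0.10, 95% interval -0.19 to 0.25, adjusted p = 0.905 in limma). Samples numbered 2 were highest in both groups and exceeded the other 4 in 7 of 12 probe sets. For this count, too, the share over all probe sets was not computed. The number means were 9.88, 10.06 and 9.86, and the number did not pass (adjusted p = 0.428 in limma). Gas6 and Mfge8 had their highest readings in different sample numbers, 1 and 2.

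**Figure D3:**
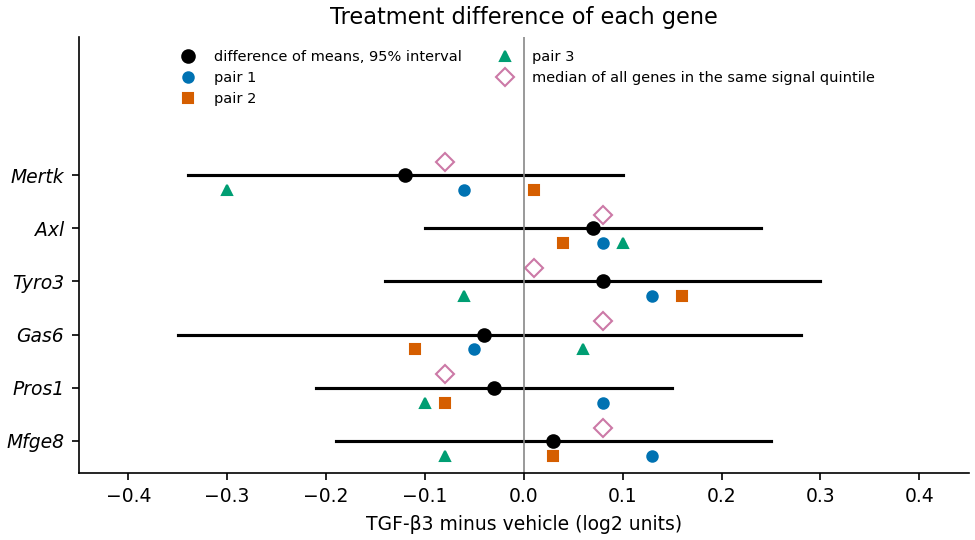
Difference of group means (black points, TGF-β3 minus vehicle in log2 units) with its 95% interval from limma, the 3 pair differences below it and, as open diamonds, the median difference of all genes in the same signal quintile. Every interval includes 0, and Axl at 0.07 lies beside its quintile's median of 0.08.

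No further gene of this uptake route passed the test. Of 77 measured genes in 7 lists, 0 passed in limma, without or with the sample number as a block (0.0% and 0.00959% of all genes), and 4 had an unadjusted p under 0.05 (5.16% of all genes). The count was also 0 without the vehicle 3 array. The groups did not overlap in 8 of 77 (10.4%), against 12.9% of all genes. A total of 51 were higher and 26 lower, with a median of 0.054 beside 0.011 for all genes. After quantile normalization these medians were 0.022 and -0.009. The split differed with signal. Of the 44 above the silent range 42 were higher (95.5%), with a median of 0.09, and of the other 33, 9 were (27.3%), with a median of -0.07. Over all genes 85.3% and 27.4% of these classes were higher, with medians of 0.09 and -0.06.

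**Figure D4:**
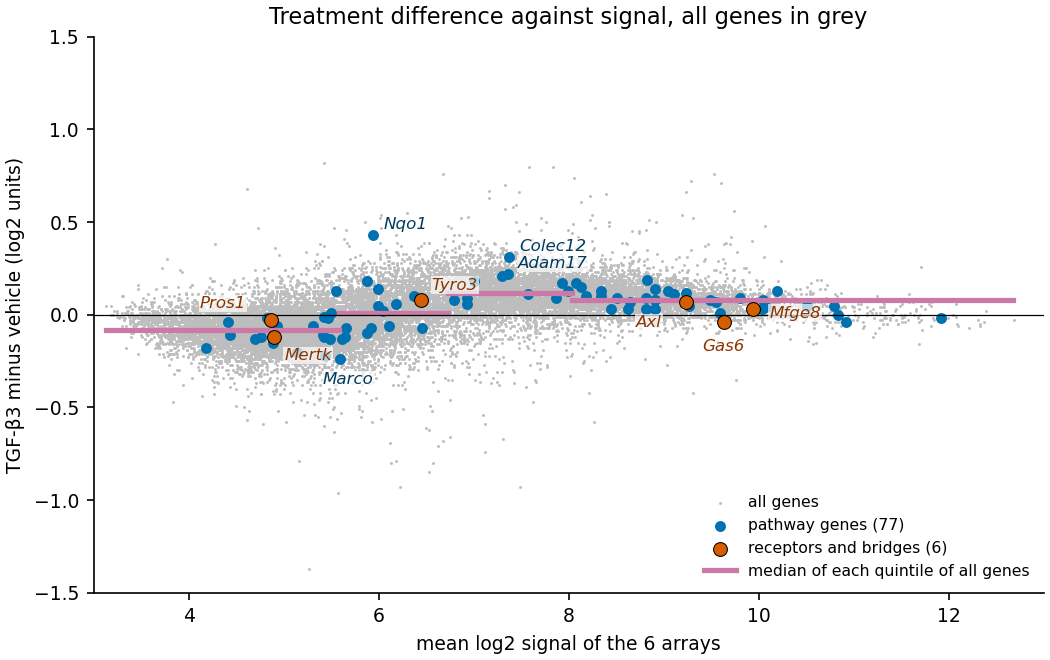
Treatment difference (vertical axis, log2 units) against mean log2 signal of the 6 arrays for all genes (grey), the 77 pathway genes (blue) and the 6 receptor and bridge genes (orange), with the median of each quintile of all genes by signal as a pink line. The medians run from -0.08 at low signal to 0.12 in the fourth quintile, and the blue points follow them, Nqo1 at 0.43 and Colec12 at 0.31 lying above.

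Among other bridges and opsonins, 5 of 13 were above the silent range, 5 of 13 were higher and 8 lower, and 0 passed (median -0.018). Thbs1, whose product thrombospondin 1 links dying cells to αv integrin and CD36, read 11.93 ± 0.05 in vehicle against 11.91 ± 0.08 after TGF-β3 (SD, n = 3). Calr, which encodes calreticulin, an eat-me signal on dying cells, read 10.06 ± 0.03 and 10.10 ± 0.02. Edil3, the gene for an RGD bridge related to Mfge8, stayed in the silent range at 4.49 ± 0.13 and 4.38 ± 0.09. Colec12, which encodes a scavenger collectin, had the smallest unadjusted p of this list. It read 7.31, 7.21 and 7.14 in vehicle and 7.51, 7.61 and 7.48 in TGF-β3, and the groups did not overlap. Its difference of 0.31 (SE 0.08) had an adjusted p of 0.684 in limma and was 0.27 after quantile normalization. Tub and Tulp1, whose products are described as Mertk ligands, were both in the silent range and differed by -0.13 (SE 0.09) and -0.12 (SE 0.08).

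Of 20 other receptors for dying cells, 6 were above the silent range, namely Itgav, Itgb5, Itgb1, Scarb1, Lrp1 and Cd14, and 8 were higher and 12 lower (median -0.063, 0 passed). The αv integrin chains, which receive Mfge8, were not alike in signal. Itgav (αv) read 8.84 ± 0.16 and 8.98 ± 0.08 and Itgb5 (β5) 10.48 ± 0.06 and 10.53 ± 0.05 in vehicle and TGF-β3. Itgb3 (β3) lay in the silent range at 5.49 ± 0.10 and 5.50 ± 0.06. The phosphatidylserine receptor gene Timd4, the scavenger receptor gene Marco and Stab1, which encodes stabilin 1, had the smallest p of this list, with differences of -0.22 (SE 0.11), -0.24 (SE 0.09) and 0.18 (SE 0.09). Timd4 and Marco passed the 95th percentile of silent genes on 0 arrays and Stab1 on the 3 TGF-β3 arrays.

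Of 5 genes for processing Gas6 and Pros1, including their vitamin K-dependent carboxylation, 4 were above the silent range, 5 were higher and 0 passed (median 0.126, and 0.062 after quantile normalization). Vkorc1 and Vkorc1l1, which recycle vitamin K, and the convertase gene Furin also passed the 99th percentile of silent genes on 6 of 6 arrays. Ggcx, the carboxylase gene, passed that percentile on 1 array, at 6.90 ± 0.16 in vehicle and 6.96 ± 0.07 in TGF-β3. Vkorc1 differed by 0.13 (SE 0.09), and by 0.06 after quantile normalization, and Vkorc1l1 by 0.13 (SE 0.10). Nqo1, a quinone reductase that can also reduce vitamin K, read 6.07, 5.52 and 5.60 in vehicle and 6.23, 6.01 and 6.24 in TGF-β3. It was the gene of this list not above the silent range, passing the 95th percentile on 4 of 6 arrays but not on vehicle 2 and 3. The vehicle 1 sample lay inside the TGF-β3 range, and the difference of 0.43 (SE 0.15) did not pass in limma (adjusted p = 0.684).

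Proteases that shed TAM receptors from the surface had signal above the silent range. The list, which also holds Bsg and the sheddase inhibitor gene Timp3, was above it in 5 of 5 genes, with 4 higher, 1 lower and 0 passing (median 0.08, and 0.037 after quantile normalization). Adam17, a sheddase for Mertk and Axl, read 7.36, 7.31 and 7.08 in vehicle and 7.49, 7.46 and 7.48 in TGF-β3 with no overlap. It differed by 0.22 (SE 0.09, adjusted p = 0.684 in limma), by 0.40 in pair 3 against 0.12 and 0.15 in the others, and the fourth quintile of genes by signal, where its mean lies, had medians of 0.04, 0.08 and 0.23 in pairs 1, 2 and 3. Adam10, the sheddase that also cuts Axl, and Adam9 differed by 0.11 (SE 0.11) and 0.08 (SE 0.08).

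Of 21 signalling adaptors, 18 were above the silent range, 19 were higher and 2 lower, and 0 passed (median 0.091, and 0.044 after quantile normalization). The uptake module downstream of Mertk, in which ELMO and DOCK proteins activate Rac1, was represented by Elmo2 (7.83 ± 0.07 and 7.91 ± 0.06), Elmo3 (7.93 ± 0.26 and 8.06 ± 0.12) and Rac1 (9.52 ± 0.19 and 9.59 ± 0.14) in vehicle and TGF-β3. Dock1, the DOCK gene of the list, was not above the silent range, passing the 95th percentile on 5 of 6 arrays (6.20 on vehicle 3 was below it). Elmo1, the form known from leukocytes, was in the silent range and differed by -0.15 (SE 0.08). Ranbp9 and the adaptor gene Nck2 differed by 0.19 (SE 0.10) and 0.17 (SE 0.10). Of 7 measured genes for phosphatidylserine exposure, 4 were above the silent range, 5 were higher and 2 lower (median 0.029, and -0.003 after quantile normalization, 0 passed). The flippase gene Atp11a differed by 0.08 (SE 0.09), the scramblase family genes Plscr1 by 0.08 (SE 0.10) and Xkr9 by -0.18 (SE 0.10). In the feedback arm by which TAM receptors dampen cytokine signals through the interferon receptor, 5 of 6 genes were higher and 1 lower (median 0.114, and 0.076 after quantile normalization, 0 passed). The receptor genes Ifnar1 and Ifnar2 were above the silent range and differed by 0.10 (SE 0.12) and 0.15 (SE 0.13), and the suppressor gene Socs3, which passed the 95th percentile on 3 of 6 arrays, by 0.14 (SE 0.15).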

How the data were processed

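The authors deposited 1 table of log2 signals for 6 arrays and 241576 probe sets, made with RMA in Affymetrix Power Tools per the submitters' processing notes. Their versions and a genome build are not given in the sources used here. Values ran from 2.96 to 13.07, which set the scale as log2. Groups and numbers came from the sample titles. Gene names came from the platform's annotation of probe sets: 213361 had 1 symbol, and 5107 with several and 23108 not listed were left out. Symbols were updated through RefSeq (GRCm38.p6): 18496 of 20893 were current, 2354 were updated and 43 kept. Probe sets were averaged per gene and array, with no filter on low signal.

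TGF-β3 was compared with vehicle in limma 3.58.1 (R 4.3.3, lmFit and eBayes, no block), with Benjamini-Hochberg adjustment over all 20848 genes and a threshold of 0.05. Differences are TGF-β3 minus vehicle; SD is over the 3 samples of a group. The smallest effect that can be seen is set by the number of arrays, since signals carry no read depth, and 95% intervals reached a median of 0.22 log2 units to each side. The 6 genes, the 7 pathway lists and the tests were chosen with earlier results of these data known. Of the 79 pathway genes listed, 77 were measured. The text names the 6 genes, 3 pathway genes per list with the smallest p, and the 2 genes nearest to each of the 6; Thbs1, Calr, Edil3, Itgav, Itgb5, Itgb3, Itgb1, Scarb1, Lrp1, Cd14, Ggcx, Furin, Bsg, Timp3, Elmo2, Elmo3, Dock1, Rac1 and the marker genes were added with their values in view. Pairing by sample number was checked: deviations from group means correlated over genes at 0.62, 0.41 and 0.22 in pairs 1, 2 and 3. Vehicle 3 correlated at 0.17 with TGF-β3 2. Its SD of differences over genes was 0.263 from TGF-β3 2 and 0.277 from TGF-β3 3. The check therefore did not set pair 3 apart, and the numbers were taken as pairs from the titles. No arrays were duplicates (SD of differences over genes 0.115 to 0.327). Scripts were tested on simulated data. Tables and figures used Python 3.11.15, pandas 2.3.3 and matplotlib 3.10.9.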

Additional observations from a re-analysis of the deposited data

How the results depend on the processing

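None of the 6 genes passed in limma under any of the alternatives run, with adjusted p from 0.336 to 1. Axl kept its sign in 16 of 16 alternatives (0.03 to 0.10) and Mertk in 16 of 16 (-0.17 to -0.02). Leaving out each sample in turn gave -0.17 to -0.02 for Mertk, 0.05 to 0.10 for Axl, 0.00 to 0.16 for Tyro3, -0.16 to 0.09 for Gas6, -0.08 to 0.00 for Pros1 and -0.03 to 0.09 for Mfge8. Gas6 turned positive without vehicle 1 (0.09), TGF-β3 2 (0.02) or TGF-β3 3 (0.03), Pros1 without TGF-β3 2 (0.00), and Mfge8 negative without vehicle 1 (-0.02) or TGF-β3 2 (-0.03). Such an omission leaves a sample number in only 1 group. The sign also turned with the brightest probe set in Tyro3 (-0.25) and Pros1 (0.12), with the median probe set in Pros1 (0.01) and Mfge8 (-0.04), and in Mfge8 with median centring (-0.02) and array weights (-0.05); the cause was not tested. Pros1 has no value without the quintile of genes of lowest signal, to which it belongs. Over all genes 0 passed, 2 with the replicate block, 1 with the block and quantile normalization (added after seeing the data), and 0 to 1 when 1 sample was left out, 1 without vehicle 1. The block changed no call among the 6 genes or the pathway genes. Signal over background limits Mertk, Pros1 and much of Tyro3. The 3 samples a group limit all differences.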

Other observations

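For each of the 6 genes, the genes nearest in profile over the 6 arrays were sought among 10836 genes of mean signal above the silent range, by the root mean square difference of values centred on their own mean. Gas6 lay nearest to Cited4, a transcriptional co-regulator gene, which read 8.12, 7.82 and 7.65 in vehicle 1, 2 and 3 and 8.08, 7.75 and 7.70 in TGF-β3, at a difference of 0.017 log2 units. Plcd3, a phospholipase C gene, followed at 0.030. Gas6 itself varied by 0.184 about its mean and 393 candidates lay within 0.1 of it. Gas6 and Cited4 both fell from number 1 to 2 to 3 in each group. Because Cited4 was picked for its likeness, that shared order is no separate result. Mfge8 lay nearest to Mmp14, a membrane-bound matrix protease gene (8.90, 9.08 and 8.95 in vehicle, 9.02, 9.16 and 8.92 in TGF-β3), and to Tmem79, at 0.020 and 0.025, with 1127 candidates within 0.1.

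Tyro3 lay nearest to Ank and Fstl3 (0.018 and 0.023), Mertk to Mir181d and Glyctk (0.019 and 0.025), Axl to Dmwd and Dvl3 (0.008 and 0.014) and Pros1 to Pkia and Sdc4 (0.014 and 0.021). Axl varied by only 0.048 about its mean and 4848 candidates lay within 0.1 of it, so many flat genes resemble it. The Mir181d and Glyctk values share with Mertk the single high reading on the vehicle 3 array (7.65 against 7.32 to 7.37 for Mir181d).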
